A study of Mus musculus with 30 samples.

Results

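The type I acyl-CoA thioesterase genes Acot1 to Acot6 form a cluster on mouse chromosome 12. They were taken by symbol from the 41388 genes in the deposited tables and are 6 of these. They were chosen by their read counts and CPM over the 6 RNA groups, with the differences between those groups already known. All 6 lie on the plus strand of chr12:83987861-84111349 (GRCm38), a stretch of 123.5 kb, in the order Acot2, Acot1, Acot4, Acot3, Acot5 and Acot6. Their Ensembl identifiers are ENSMUSG00000072949 for Acot1, ENSMUSG00000021226 for Acot2, ENSMUSG00000021228 for Acot3, ENSMUSG00000052392 for Acot4, ENSMUSG00000042540 for Acot5 and ENSMUSG00000043487 for Acot6.

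Acyl-CoA thioesterases cut the bond between a fatty acid and coenzyme A, so they set the balance between free fatty acids, acyl-CoA and free coenzyme A in each compartment of the cell. ACOT1 works in the cytosol and ACOT2 in mitochondria, both on long-chain acyl-CoA. Mouse ACOT3, ACOT4, ACOT5 and ACOT6 are peroxisomal: ACOT3 favours long chains, ACOT4 dicarboxylic acyl-CoA and succinyl-CoA, ACOT5 medium chains and ACOT6 methyl-branched chains. In liver, several genes of this cluster are textbook targets of PPARα, the nuclear receptor that fatty acids activate in fasting.

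The study asked what A1CF, an RNA-binding protein that takes part in APOBEC1 editing of Apob mRNA, does in mouse liver. RNA-seq covered 3 pools of hepatocytes labelled A1cf-transgenic (A1cf_Tg/+), 3 pools of wild-type C57BL/6J hepatocytes, 4 pools of livers labelled A1cf_Tg/+ and 4 from the C57BL/6J wild type, and 3 pools of livers lacking A1cf (A1cf_-/-, the knockout) and 3 from the C57BL/6NJ wild type. Hepatocytes came from mice aged 12 weeks and were plated overnight on collagen after perfusion with collagenase, and livers came from mice aged 12 months. Every pool joined RNA of 3 to 4 mice, so p-values measure the spread between pools and not that between animals, and the promoter of the transgene is not given in the sources used here. The knockout and transgenic livers were sequenced as separate studies, so strain and study cannot be told apart in any level set across them. A further 10 libraries held A1CF CLIP-seq reads, from RNA crosslinked to A1CF in transgenic hepatocytes.

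RNA libraries held between 17044839 and 37211328 reads assigned to genes. A1cf itself averaged 24.5 ± 4.84 CPM in knockout livers and 213.5 ± 21.1 CPM in C57BL/6NJ livers (SD, n = 3 each), so it was -3.12 ± 0.15 on the log2 scale (SE, edgeR quasi-likelihood test, Benjamini-Hochberg adjusted p = 1.59e-05). In livers labelled Tg it averaged 155.8 ± 9.14 CPM, against 244.2 ± 31.6 CPM in C57BL/6J livers (SD, n = 4 each), so it fell by 0.65 on the log2 scale (adjusted p = 0.0369), which goes against the label. Hepatocytes labelled Tg held 9.31 ± 1.26 CPM and wild-type hepatocytes 9.19 ± 2.32 CPM (log2 fold change 0.02 ± 0.24, adjusted p = 0.962). Directions given below for Tg samples therefore rest on the labels. Skeletal muscle mRNA was present in some liver pools: the 15 muscle markers summed to 150.5, 26.3 and 117 CPM in the knockout pools and to 1.39, 0.885 and 1.19 CPM in the C57BL/6NJ pools. They summed to 2.51 to 3.57 CPM in the 4 Tg liver pools, and to 2635 CPM in C57BL/6J liver pool 2 against 2.93 to 4.22 CPM in the other C57BL/6J pools. Of the 15 markers, 1 was at 0 in every knockout pool and 4 in every C57BL/6NJ pool.

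The members are close copies of each other, and the sequences below show what that means for the counts. The longest run of identical letters between the counted transcripts of Acot1 and Acot2 spans 273 coding bases within a single exon of each gene, at chr12:84017006-84017278 in Acot1 and chr12:83992728-83993000 in Acot2 (GRCm38, plus strand). A read that falls inside this run fits both genes equally well.
Acot1 and Acot2 shared run: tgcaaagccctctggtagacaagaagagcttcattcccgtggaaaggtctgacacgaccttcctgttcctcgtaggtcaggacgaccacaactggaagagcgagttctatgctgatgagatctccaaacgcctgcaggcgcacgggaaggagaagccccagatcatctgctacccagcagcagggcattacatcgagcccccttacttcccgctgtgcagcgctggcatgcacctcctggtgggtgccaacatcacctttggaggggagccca
Of all 50-base words in the counted transcript, 47.3% of those of Acot1 also occurred in another gene, as did 27.7% for Acot2, 25.9% for Acot3, 12.1% for Acot4, 22.8% for Acot5 and 6.71% for Acot6. Acot2 alone held 34.9% of the Acot1 words. With words of 100 bases the shares were 32.6%, 17.1%, 19.2%, 0.988%, 8.32% and 1.82% in the same order. How the authors treated reads that align more than once is not given in the sources used here, so the split between Acot1 and Acot2 is uncertain over the shared stretches, while most of the Acot4 and Acot6 sequence is their own.

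The sequences before the start sites are shown because the liver levels of several members varied together from pool to pool. RefSeq promoter entries (GRCm38.p6) were found for 5 of the 6 members, and the 250 bases before the start site are printed for the 4 genes whose liver levels are described most fully. Capitals mark the stretch most like the direct repeat bound by PPARα with RXR, which reads AGGTCA, then any base (N), then AGGTCA again, and was searched on both strands with its 12 fixed letters compared and the N left free.
Acot2 promoter, chr12:83987611-83987860, plus strand: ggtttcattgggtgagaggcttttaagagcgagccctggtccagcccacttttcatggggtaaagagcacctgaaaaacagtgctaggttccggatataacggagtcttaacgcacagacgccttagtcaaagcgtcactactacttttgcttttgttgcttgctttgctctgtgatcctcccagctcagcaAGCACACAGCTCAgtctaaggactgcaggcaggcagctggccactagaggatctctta
Acot1 promoter, chr12:84009252-84009501, plus strand: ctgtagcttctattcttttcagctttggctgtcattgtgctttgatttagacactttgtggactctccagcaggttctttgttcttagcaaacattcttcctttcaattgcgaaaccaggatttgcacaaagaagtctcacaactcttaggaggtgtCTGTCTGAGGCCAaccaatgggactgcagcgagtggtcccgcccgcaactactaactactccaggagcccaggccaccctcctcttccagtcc
Acot4 promoter, chr12:84038129-84038378, plus strand: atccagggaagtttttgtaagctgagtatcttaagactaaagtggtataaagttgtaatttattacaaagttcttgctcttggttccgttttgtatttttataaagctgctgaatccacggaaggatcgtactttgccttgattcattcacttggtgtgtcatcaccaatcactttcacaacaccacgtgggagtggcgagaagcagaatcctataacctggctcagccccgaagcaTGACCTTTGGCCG
Acot3 promoter, chr12:84051894-84052143, plus strand: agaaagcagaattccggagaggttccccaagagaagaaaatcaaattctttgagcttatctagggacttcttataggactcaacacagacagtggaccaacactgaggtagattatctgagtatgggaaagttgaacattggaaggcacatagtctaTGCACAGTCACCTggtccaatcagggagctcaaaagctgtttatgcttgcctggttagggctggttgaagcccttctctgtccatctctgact
The closest match lay in Acot4: its last 13 upstream bases, read on the minus strand, are CGGCCAAAGGTCA and miss the repeat at 2 letters. A match with at most 2 misses occurred in 3.18% of 27025 mouse promoters of the same length. Acot2 and Acot5 missed at 3 letters (21% of promoters have a match at least as close), and Acot1 and Acot3 at 4 letters, which 74.3% of promoters reach. CCAAT, on either strand, stood in all 5 promoters, against 34.5% of all promoters. AGGTCA occurred in Acot4 and Acot5 (13.8% of promoters) and TATAAA in Acot4 (13%), also on either strand, and the AGGTCA of Acot4 lies inside its capitals. These matches describe letters only.

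The cluster was read at different levels in the 6 groups. Summed over the 6 genes, the deposited level was 21.6 ± 4.82 CPM in Tg hepatocytes and 23.1 ± 10.7 CPM in wild-type hepatocytes (SD, n = 3 each). The sum was 21.1 ± 6.16 CPM in Tg livers and 126.6 ± 113.2 CPM in C57BL/6J livers (SD, n = 4 each), where single pools ran between 37.1 and 292.5 CPM. In knockout livers it was 234.3 ± 19.1 CPM, against 112.1 ± 31.8 CPM in C57BL/6NJ livers (SD, n = 3 each). The lowest knockout pool, at 212.3 CPM, lay above the highest C57BL/6NJ pool, at 148.0 CPM, and the highest Tg liver pool, at 26.4 CPM, below the lowest C57BL/6J pool. In whole tissue, fewer cells that express a gene and less RNA per cell cannot be told apart.

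**Figure D1:**
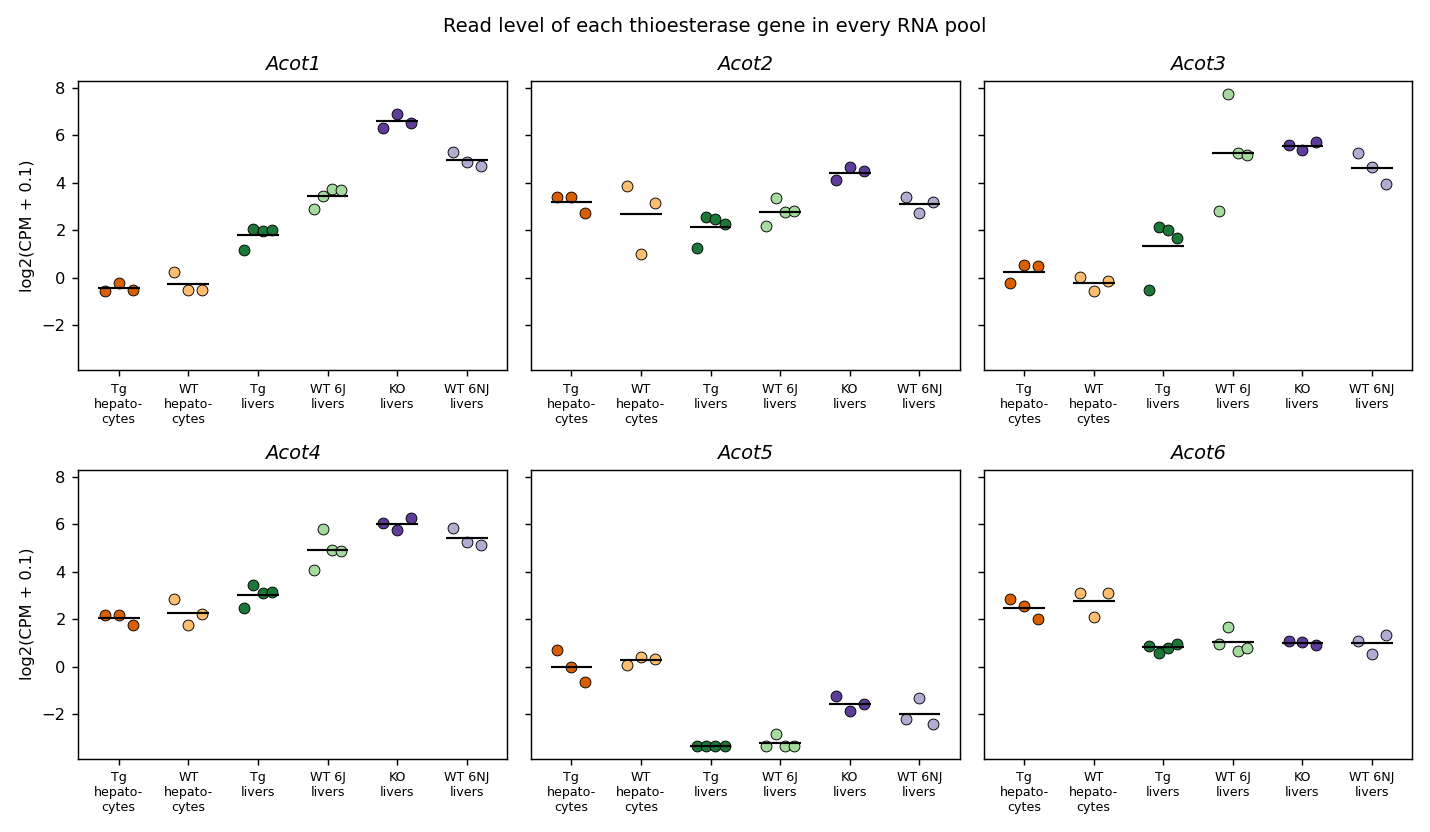
Deposited CPM of each gene on the scale log2(CPM + 0.1), one point per RNA pool and a bar at the mean of each group on that scale. Acot1 separates both liver comparisons, Acot3 of C57BL/6J livers has 1 pool at 213.4 CPM, and Acot5 has no reads in Tg livers.

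Measured per kilobase of gene length, so that genes can be set beside each other, the leading member differed between groups, among livers as well as between livers and hepatocytes. Acot2 made up 46.4% ± 2.17 of the summed RPKM in Tg hepatocytes and 35.9% ± 15.9 in wild-type hepatocytes (SD, n = 3 each). Acot1 made up 4.84% and 5.67% there. In livers the shares of Acot1 were higher, with 24.6% ± 1.65 in Tg and 19.6% ± 9.59 in C57BL/6J livers (SD, n = 4 each), and 53.0% ± 6.98 in knockout and 39.1% ± 1.67 in C57BL/6NJ livers (SD, n = 3 each). Every knockout pool gave Acot1 at least 48.6% of the sum, and no C57BL/6NJ pool gave it more than 40.4%. Acot3 held 11.3% ± 4.81 of the sum in Tg livers and 40.5% ± 22.4 in C57BL/6J livers, where pool 2 reached 70.4%. Acot2 held 21.9% ± 1.85 in Tg livers and 8.17% ± 3.46 in C57BL/6J livers. Acot4 led in each Tg liver pool, with 36.3% ± 3.07 of the sum, against 30.1% ± 8.56 in C57BL/6J livers, where it led in pool 1 with 39.7%. It held 22.3% ± 4.88 in knockout and 32.9% ± 0.673 in C57BL/6NJ livers, and 18.2% ± 1.37 in Tg and 22.1% ± 4.16 in wild-type hepatocytes. Acot6 gave 18.4% ± 1.78 of the sum in Tg and 23.2% ± 4.39 in wild-type hepatocytes, but 3.56% to 9.65% in Tg liver pools, 0.771% to 3.26% in C57BL/6J pools, 0.436% to 0.575% in knockout pools and 0.830% to 1.74% in C57BL/6NJ pools.

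**Figure D2:**
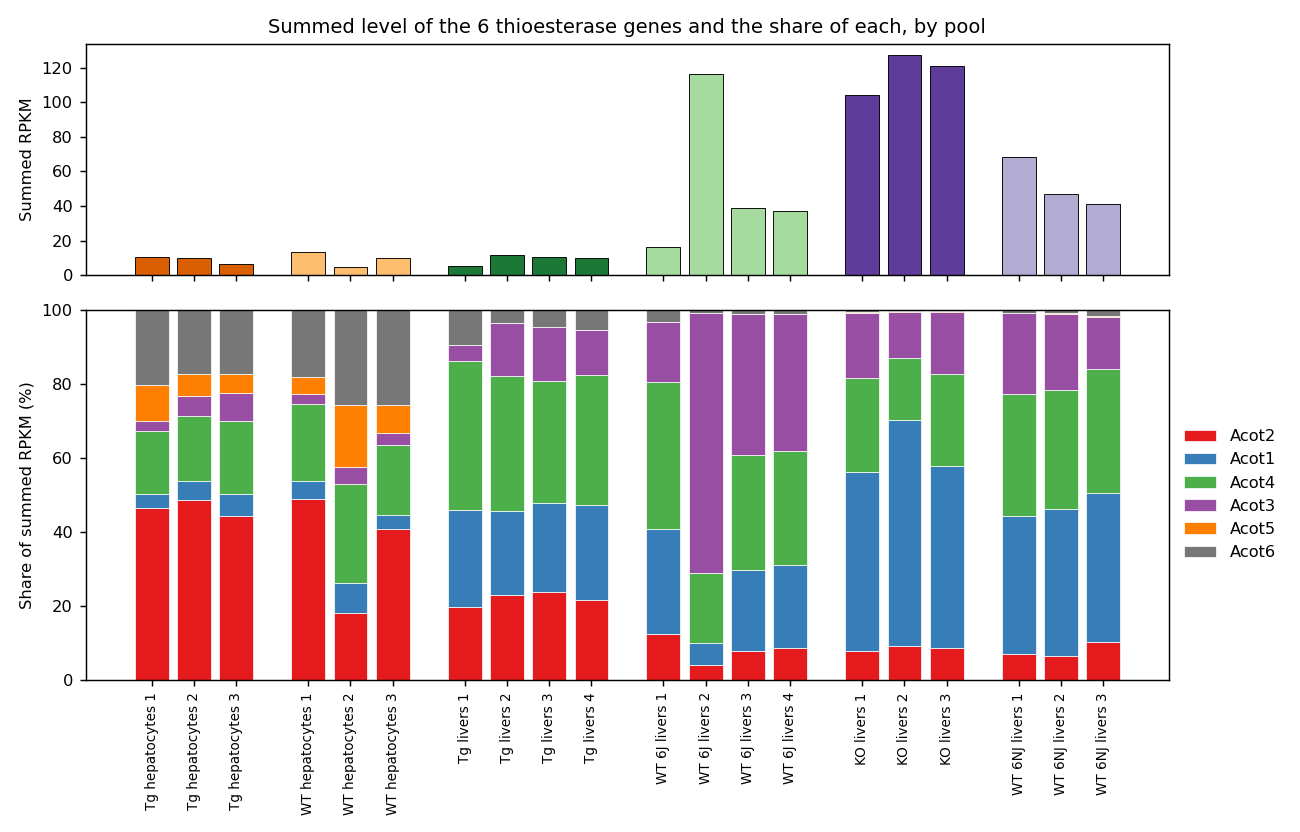
Upper panel, summed RPKM of the 6 genes in each pool. Lower panel, the share of each gene in that sum in percent; Acot2 leads in most hepatocyte pools, Acot4 in Tg livers, Acot1 in knockout livers and Acot3 in C57BL/6J liver pool 2.

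Acot1, the cytosolic enzyme, had 2.19, 4.12, 3.86 and 3.96 CPM in the 4 Tg liver pools and 7.29, 10.7, 13.3 and 12.97 CPM in the 4 C57BL/6J pools. All Tg pools were below all C57BL/6J pools, with a log2 fold change of -1.80 ± 0.25 (SE), or 3.48-fold lower. In knockout livers it had 78.9, 121.2 and 93.0 CPM, against 39.7, 29.2 and 25.99 CPM in C57BL/6NJ livers. The knockout pools were all above the C57BL/6NJ pools, by 1.62 ± 0.18 on the log2 scale (3.07-fold). Hepatocytes had little Acot1, with 0.591, 0.761 and 0.612 CPM in Tg and 1.08, 0.604 and 0.598 CPM in wild-type pools, and these overlapped (-0.18 ± 0.37). From the highest mean down, the groups ran in the order knockout, C57BL/6NJ, C57BL/6J and Tg livers, then wild-type and Tg hepatocytes, and only the last of these neighbours overlapped. The pools of the highest and lowest muscle sum among knockout livers had 78.9 and 121.2 CPM of Acot1, and C57BL/6J pool 2, with the most muscle mRNA, had 10.7 CPM, inside the range of the other C57BL/6J pools. Acot2 and Acot4 were highest of the C57BL/6J pools in pool 2, at 10.2 and 55.2 CPM. Muscle markers summed to at least 26.3 CPM in knockout pools and at most 1.39 CPM in C57BL/6NJ pools. The part of the muscle RNA in the Acot1 level was not tested.

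Acot2, the mitochondrial enzyme, had 17.4, 25.7 and 22.5 CPM in knockout livers and 10.4, 6.61 and 9.11 CPM in C57BL/6NJ livers. These groups did not overlap, and the log2 fold change was 1.32 ± 0.18 (2.50-fold). Tg livers had 2.29, 5.88, 5.41 and 4.67 CPM and C57BL/6J livers 4.50, 10.2, 6.67 and 6.98 CPM. Here the groups overlapped, at -0.78 ± 0.31. In hepatocytes it had 10.6, 10.5 and 6.46 CPM in Tg and 14.6, 1.92 and 8.77 CPM in wild-type pools, a range that takes in both wild-type liver groups. Wild-type hepatocyte pool 2 stood far below the other two, and the interval of the fold change, from -1.09 to 1.42 on the log2 scale, is wide. By mean level Acot2 was highest in knockout livers, which did not overlap the next group; Tg hepatocytes, C57BL/6NJ livers, wild-type hepatocytes, C57BL/6J livers and Tg livers followed, each overlapping the next.

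Acot3, a peroxisomal long-chain enzyme, varied widely between pools. It had 0.601, 4.32, 3.96 and 3.09 CPM in Tg livers and 7.01, 213.4, 38.7 and 35.8 CPM in C57BL/6J livers. All Tg pools lay below all C57BL/6J pools, at -4.73 ± 1.00 on the log2 scale, and without C57BL/6J pool 2, whose 5402 reads set much of that mean, the value was -3.37. Knockout livers had 47.8, 41.6 and 52.9 CPM and C57BL/6NJ livers 38.7, 25.2 and 15.3 CPM. These did not overlap either, at 0.84 ± 0.27. Hepatocytes held 0.753, 1.37 and 1.30 CPM in Tg and 0.931, 0.577 and 0.825 CPM in wild-type pools (0.57 ± 0.35, overlapping). The mean order was C57BL/6J, knockout, C57BL/6NJ and Tg livers, then Tg and wild-type hepatocytes; C57BL/6J and knockout livers overlapped, as did Tg livers with Tg hepatocytes and the 2 hepatocyte groups with each other. C57BL/6J pool 2 was also the pool with 2635 CPM of muscle markers, and the part of the muscle RNA in the Acot3 level was not tested.

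Acot4, which acts on dicarboxylic and succinyl-CoA in peroxisomes, had 5.41, 10.7, 8.59 and 8.68 CPM in Tg livers, against 16.5, 55.2, 30.3 and 28.9 CPM in C57BL/6J livers. The Tg pools were all lower, by a log2 fold change of -2.10 ± 0.34, or 4.30-fold. In knockout livers it had 65.9, 53.3 and 76.1 CPM, and in C57BL/6NJ livers 57.1, 38.1 and 34.6 CPM. The lowest knockout pool lay below the highest C57BL/6NJ pool, and the log2 fold change was 0.59 ± 0.19. Tg hepatocytes had 4.43, 4.38 and 3.29 CPM and wild-type hepatocytes 7.12, 3.24 and 4.61 CPM (-0.26 ± 0.33, overlapping). Knockout livers had the highest mean and Tg hepatocytes the lowest; in that order only the step between C57BL/6J and Tg livers was free of overlap.

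Acot5 and Acot6, the medium-chain and methyl-branched-chain enzymes, had their highest levels in plated hepatocytes. Acot5 had 0 reads in each Tg liver pool, which allows a level of up to 0.0388 CPM over the group, and 1 read in all C57BL/6J livers together. The knockout pools had 10, 5 and 7 reads and the C57BL/6NJ pools 3, 10 and 3, so the gene did not pass the filter on low counts in either liver comparison. In plated hepatocytes it was read at 0.974 ± 0.491 CPM in Tg and 1.11 ± 0.139 CPM in wild-type pools (SD, n = 3 each; log2 fold change -0.12 ± 0.43). Acot6 was likewise higher in hepatocytes than in any liver group, with 7.18, 5.81 and 3.90 CPM in Tg and 8.38, 4.20 and 8.57 CPM in wild-type pools. No liver pool exceeded 3.04 CPM of Acot6. Its liver means were 1.66 ± 0.188 CPM in Tg and 2.00 ± 0.708 CPM in C57BL/6J livers (SD, n = 4 each), and 1.92 ± 0.119 in knockout and 1.92 ± 0.557 CPM in C57BL/6NJ livers (SD, n = 3 each). The 95% intervals of its log2 fold change ran from -0.91 to 0.10 in Tg livers, from -0.51 to 0.50 in knockout livers and from -0.98 to 0.44 in Tg hepatocytes. Hepatocytes and livers differed in age and in culture, so which of these the difference in level follows cannot be told apart.

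Counted over the cluster, 2 of the 5 members tested in Tg livers, Acot1 and Acot4, were lower past the threshold of an adjusted p of 0.05 in the edgeR fit across 14110 genes, where 0.361% of all genes were called lower, 0.971% higher and 1.33% in either direction. The groups were apart for 3 of 5, against 5.29% of all genes that were lower and 6.41% that were higher without overlap. In knockout livers 2 of 5, Acot1 and Acot2, were higher past the threshold, beside 1.5% of 15942 genes called higher and 2.98% called in either direction, and 3 of 5 were higher without overlap, beside 11.6% higher and 24.3% in either direction. In Tg hepatocytes 0 of 6 passed, by edgeR and by DESeq2, and 0 of 6 were without overlap, beside 3.15% and 32.9% of 13770 genes. Since the members were chosen with these levels known, these counts describe the choice and nothing is read from them. The median log2 fold change over the tested members was -1.80 in Tg livers, 0.84 in knockout livers and -0.15 in Tg hepatocytes, beside medians of -0.00, -0.01 and -0.02 over all genes tested. Leaving out Tg liver pool 3, Tg liver pool 4, C57BL/6J pool 3 or C57BL/6J pool 4 took both calls in Tg livers away, with log2 fold changes of Acot1 between -1.97 and -1.66 over all pools left out in turn. Without C57BL/6J pool 2 Acot3 passed as well, and without C57BL/6NJ pool 1 Acot3 and Acot4 were higher past the threshold in knockout livers, at 1.22 and 0.84.

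The Tg and knockout effects in liver were then compared in a single fit on the 14 liver pools, which share no control samples. The Tg effect minus the knockout effect was -3.43 ± 0.35 for Acot1, -2.11 ± 0.40 for Acot2, -5.57 ± 1.17 for Acot3 and -2.70 ± 0.45 for Acot4 (log2, SE), with 4 of 5 members past the threshold beside 1.02% of 16295 genes. For Acot6 it was -0.41 ± 0.36. The same estimates for the Tg effect in livers minus that in hepatocytes were -1.81 ± 0.45 for Acot1, -5.49 ± 1.26 for Acot3 and -2.03 ± 0.53 for Acot4, and 0 of 6 members passed there, beside 0.842% of 15565 genes. Acot5 entered that fit only through its hepatocyte reads, with 0 reads in Tg livers and 1 read in C57BL/6J livers, so it holds no measure of a liver effect. These differences are given as description for the same reason.

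**Figure D3:**
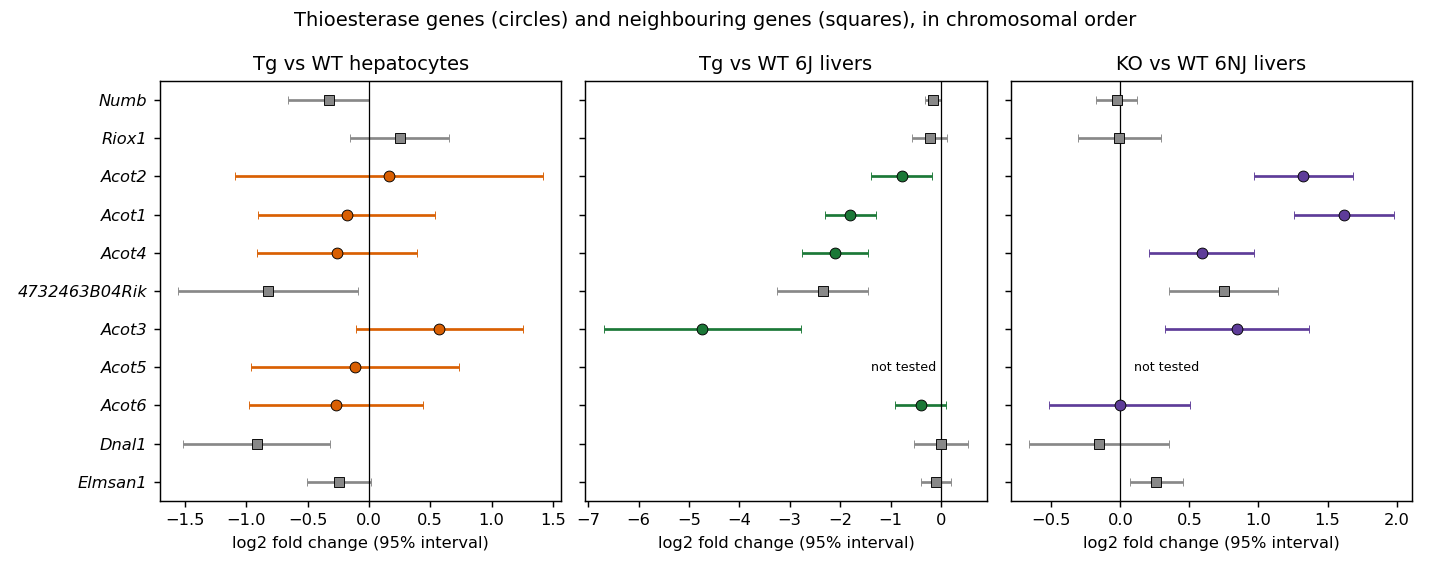
Log2 fold changes with 95% intervals of the 6 thioesterase genes (circles) and their nearest tested neighbours (squares), ordered by position on chromosome 12, in the 3 comparisons. In Tg livers Acot1, Acot4 and Acot3 lie between -1.80 and -4.73, and Acot2 and Acot6 at -0.78 and -0.40. Numb, Riox1, Dnal1 and Elmsan1 lie between -0.22 and 0.01, and 4732463B04Rik, inside the cluster, at -2.35.

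The flanking genes were read in the same fits. The nearest tested genes before it, Riox1 at 34.9 kb, a histone demethylase gene, and Numb at 65.9 kb, a regulator of Notch signalling, had log2 fold changes of -0.22 ± 0.18 and -0.15 ± 0.08 in Tg livers and -0.01 ± 0.15 and -0.03 ± 0.08 in knockout livers. After it, Dnal1, a dynein light chain gene 3.0 kb away, had 0.01 ± 0.28 and -0.16 ± 0.26, and the next tested gene was Elmsan1 in Tg livers (-0.09 ± 0.15) and Pnma1 in knockout livers (-0.28 ± 0.62). In Tg hepatocytes Riox1, Numb, Dnal1 and Pnma1 had 0.25, -0.33, -0.92 and -0.95, and none of them passed the threshold in any comparison. Within 1 Mb, 1 of 31 neighbours passed in Tg livers, 2 of 34 in knockout livers and 1 of 31 in Tg hepatocytes. Named after their values were seen, these were 4732463B04Rik in Tg livers, Papln (0.80 ± 0.14) and Isca2 (-0.62 ± 0.10) in knockout livers and Ptgr2 (-0.78 ± 0.14) in Tg hepatocytes. The median over all tested genes of chromosome 12 was -0.09 in Tg livers, -0.04 in knockout livers and -0.19 in Tg hepatocytes.

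The first of these, 4732463B04Rik, lies inside the cluster. It runs on the minus strand at chr12:84039469-84053807 (GRCm38), across Acot4 and the start of Acot3, and was singled out after its values were seen. It had 0.546, 1.26, 0.917 and 1.09 CPM in Tg livers, against 1.82, 8.41, 4.30 and 3.17 CPM in C57BL/6J livers (log2 fold change -2.35 ± 0.46, edgeR adjusted p = 0.048). In knockout livers it had 7.97, 6.50 and 9.47 CPM, against 5.95, 3.83 and 4.52 CPM in C57BL/6NJ livers (0.75 ± 0.20, adjusted p = 0.0871). Its exons overlap 615 of the 2508 counted bases of Acot4, or 24.5%, and 312 of the 2601 of Acot3, or 12.0%. The strand setting of the count is not given in the sources used here, so reads of 4732463B04Rik cannot be told apart from those of Acot4 and Acot3 over these bases.

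Within groups, the members also varied from pool to pool. Deviations from the group mean of log2(CPM + 0.5), with TMM scaling, were correlated over the 14 liver pools for the 4 members with most liver reads, in 6 pairs. The members were chosen on the levels of these same pools, so the correlations are a description and no test is given. Acot3 and Acot4 moved most closely together of the 6 pairs, with a Pearson r of 0.951 and a Spearman rho of 0.921. Without the 2 pools farthest from the median of Acot3, r was 0.877. Acot2 had an r of 0.799 and a rho of 0.776 with Acot3, and an r of 0.768 and a rho of 0.705 with Acot4. Without the 2 pools farthest from the median of Acot2, r was 0.602 and 0.585. Acot1 and Acot2, the pair with the longest shared run, had an r of 0.736 and a rho of 0.459. Without the 2 pools farthest from the median of Acot1, their r was 0.432. Leaving out the most extreme pools narrows the range and can lower r by itself, so nothing is read from these falls. Acot1 had an r of 0.561 with Acot3 and of 0.552 with Acot4.

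The 2 liver studies were also taken separately. For Acot1, r in the 8 Tg and C57BL/6J pools was 0.752 with Acot2, 0.602 with Acot3 and 0.633 with Acot4, and in the 6 knockout and C57BL/6NJ pools it was 0.711, 0.556 and 0.331 in the same order. In the 8 Tg and C57BL/6J pools r was 0.984 for Acot3 and Acot4, 0.910 for Acot2 with Acot3 and 0.910 for Acot2 with Acot4. In the 6 knockout and C57BL/6NJ pools it was 0.891 for Acot3 and Acot4, but 0.130 and 0.217 for Acot2 with Acot3 and Acot4, so the relation of Acot2 to those genes was not seen in that study. Without C57BL/6J pool 2, over 13 pools, r was 0.924 for Acot3 and Acot4, and the values of Acot1 were 0.878 with Acot3, 0.770 with Acot4 and 0.855 with Acot2. That pool had 10.7 CPM of Acot1 beside 213.4 CPM of Acot3. The genes share the library, and Acot3 and Acot4 also share bases with 4732463B04Rik.

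**Figure D4:**
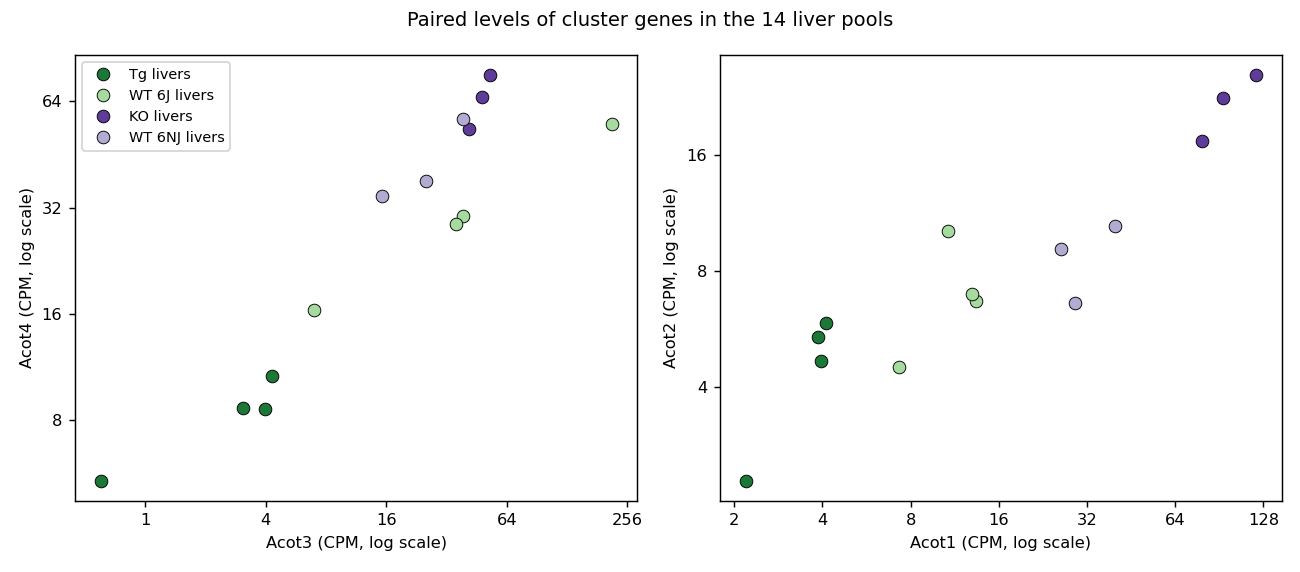
Deposited CPM in the 14 liver pools on log scales, Acot4 against Acot3 on the left and Acot2 against Acot1 on the right. C57BL/6J pool 2 is the point at 213.4 CPM of Acot3; in the right panel it has 10.7 CPM of Acot1 and 10.2 CPM of Acot2.

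Pool-to-pool deviations of 13870 genes were set beside those of the summed cluster, by Pearson r over the 14 liver pools. Members and genes with Gm or Rik names were passed over when naming the most alike. The highest of the rest were Dqx1 (0.946), Adamtsl3 (0.924), Mmp11 (0.922), Ptpn6 (0.911) and Zc2hc1a (0.901). Without C57BL/6J pool 2 the values were 0.866, 0.809, 0.790, 0.883 and 0.791, and none of these genes then ranked above place 29. Among the genes passed over, 4732463B04Rik had 0.938 and rank 4, and 0.870 and rank 43 without that pool. The cluster sum contains its members, so their own values, of 0.984 for Acot3, 0.939 for Acot4, 0.804 for Acot2, 0.531 for Acot1 and 0.393 for Acot6, are not independent of it. Without that pool Acot1 had 0.942 and Acot6 -0.39.

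Other PPARα targets were read beside the cluster from a list of 38 genes that holds none of the members. In knockout livers 13 of them rose and 1 fell past the threshold, beside 1.5% and 1.48% of all genes, and 23 were higher without overlap, beside 11.6%. The 4 with the smallest p were Retsat, a retinol saturase (1.19 ± 0.17, edgeR adjusted p = 0.00697), the fatty acid omega-hydroxylase genes Cyp4a10 (1.71 ± 0.25, adjusted p = 0.00914) and Cyp4a32 (0.57 ± 0.09, adjusted p = 0.00988), and Vnn1, a pantetheinase that feeds coenzyme A recycling (1.29 ± 0.20, adjusted p = 0.0104). The gene that fell was Fgf21, a fasting hormone (-1.81 ± 0.36, adjusted p = 0.0317). The median of the list was 0.31, beside 0.84 for the tested thioesterase genes. Ppara itself had a log2 fold change of 0.03 ± 0.11 (adjusted p = 0.918).

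In Tg livers 0 of the 38 passed the threshold of edgeR, with 12 at an unadjusted p under 0.05, where 20.3% of all genes had one, and DESeq2 called 3 of the list. A total of 31 of the 38 estimates were below 0, with a median of -0.27, and 2 genes were lower without overlap, beside 5.29% of all genes. Ppara had -0.40 ± 0.11 (adjusted p = 0.0982). In Tg hepatocytes 1 rose, Creb3l3, a transcription factor of the fasted liver (1.18 ± 0.21, adjusted p = 0.0361), and the median was 0.30. C57BL/6J pool 2, the pool with most Acot3, also had the most Cyp4a14, at 357.5 CPM, against 9.50 to 55.2 CPM in the other C57BL/6J pools, and the most Pdk4, at 43.4 CPM, against 2.52 to 6.29 CPM; these genes were picked after their values were seen.

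**Figure D5:**
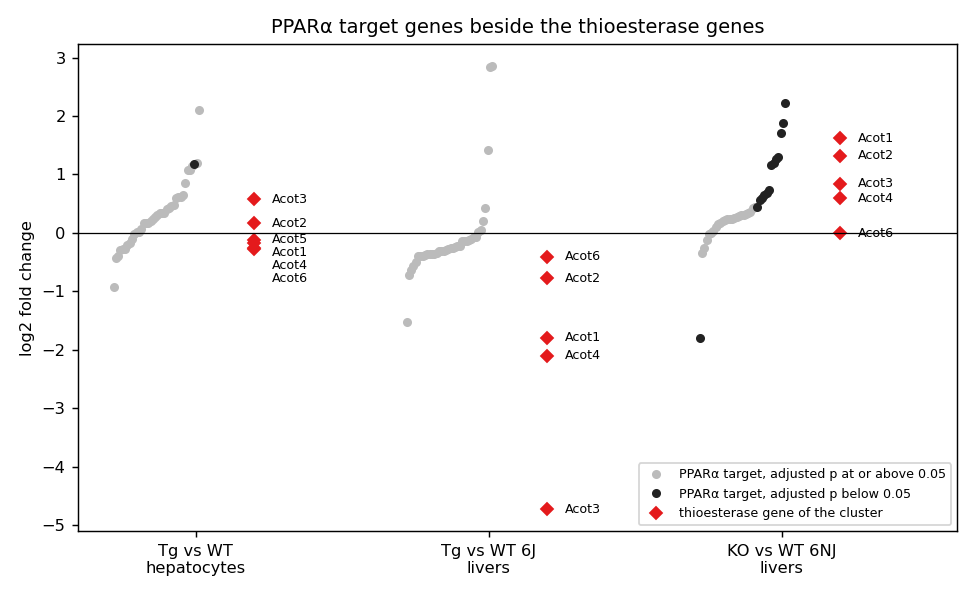
Log2 fold changes in the 3 comparisons of the 38 PPARα target genes (circles, black where the adjusted p was below 0.05) and of the tested thioesterase genes (diamonds). In knockout livers 13 targets rose beside Acot1 and Acot2. In Tg livers no target passed, while Acot1, Acot4 and Acot3 lie at -1.80 or lower and Acot2 and Acot6 at -0.78 and -0.40.

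The other acyl-CoA thioesterases, which are encoded elsewhere in the genome, gave 0 edgeR calls among 8 tested genes in each comparison, with 4 at an unadjusted p under 0.05 in Tg livers, 3 in knockout livers and 2 in Tg hepatocytes. Their median log2 fold change was -0.01 in Tg livers, 0.03 in knockout livers and 0.20 in Tg hepatocytes. Baat and Acnat1 and Acnat2, acyltransferases of the same protein family that join acyl groups to amino acids, also gave 0 calls of 3 in each, with 1, 2 and 1 at an unadjusted p under 0.05 in the same order. Among 16 acyl-CoA synthetases, which run the opposite reaction, Slc27a1 (1.47 ± 0.11, edgeR adjusted p = 0.000245) and Acsm2 (1.46 ± 0.24, adjusted p = 0.0132) rose and Acsl3 fell (-0.59 ± 0.12, adjusted p = 0.0358) in knockout livers, and 0 of 15 and 0 of 14 passed in Tg livers and Tg hepatocytes, where 7 and 1 had an unadjusted p under 0.05.

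Fatty acid oxidation genes were read next. Of 20 mitochondrial genes, Eci1 (0.65 ± 0.10), Hadhb (0.45 ± 0.09) and Decr1 (0.41 ± 0.09), which act on unsaturated and long-chain acyl-CoA, rose in knockout livers. Past the threshold 3 of the 20 were higher and 1 lower there, beside 1.5% and 1.48% of all genes. Estimates were above 0 for 18 and below 0 for 2. Without overlap 12 were higher and 1 lower, beside 11.6% and 12.7% of all genes. An unadjusted p under 0.05 was held by 12, beside 18.4% of all genes. In Tg livers 0 of 20 passed, 4 had an unadjusted p under 0.05 and 19 estimates were below 0. In Tg hepatocytes 0 of 20 passed and 7 had an unadjusted p under 0.05. Of 22 peroxisomal genes Crat, carnitine acetyltransferase, rose in knockout livers (0.68 ± 0.11), Crot, carnitine octanoyltransferase, fell in Tg hepatocytes (-0.85 ± 0.12) and 0 passed in Tg livers, where 3 had an unadjusted p under 0.05. In knockout livers 11 of the 22 had an unadjusted p under 0.05, with 14 estimates above 0 and 8 below. Of 19 fatty acid synthesis genes, Fasn fell in knockout livers (-0.72 ± 0.16), Scd2 rose in Tg livers (3.68 ± 0.62), and in Tg hepatocytes Dgat2 (0.99 ± 0.13) and Scd2 (2.83 ± 0.45) rose and Scd1 fell (-0.99 ± 0.20). Clock genes, whose phase sets many lipid genes, gave Cry1 as lower in Tg livers (-0.999 ± 0.143), Ciart as lower in knockout livers (-0.86 ± 0.19), 1 of 16, and 0 of 17 in Tg hepatocytes, where 4 had an unadjusted p under 0.05. All of these calls are edgeR's at an adjusted p of 0.05.

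Markers of cell types moved beside the cluster in the same fits. Of the 15 muscle markers listed, 13 were tested in knockout livers and all 13 rose. They were led by Acta1, Atp2a1, Tnni2 and Tnnt3 at 9.01, 5.18, 6.85 and 8.76 on the log2 scale. In each C57BL/6NJ pool 8 of the 15 had 0 reads, so markers could pass the filter through the knockout pools alone. Nothing is read from the count of 13 for that reason. Tg livers had 0 of 2 called and Tg hepatocytes 0 of 3 (2 and 1 at an unadjusted p under 0.05). The 7 adipocyte markers summed to 119.3 to 243.6 CPM in knockout livers and 22.8 to 76.9 CPM in C57BL/6NJ livers, and to 45.6 to 92.7 CPM in Tg livers and 10.4 to 28 CPM in C57BL/6J livers. In Tg livers 0 of 3 were called, with 3 at an unadjusted p under 0.05. In hepatocytes they summed to 21.8 to 49.4 CPM in Tg and 4.42 to 6.15 CPM in wild-type pools. Of 3 tested, Cfd rose in knockout livers (5.59 ± 0.32) and Cfd (5.56 ± 0.78) and Cidec (2.79 ± 0.35) in Tg hepatocytes. Kupffer cell markers summed to 337.6 to 480.5 CPM in Tg livers and 231.8 to 424.3 CPM in C57BL/6J livers, and 1 of 8, Cd163, fell (-1.58 ± 0.28). In that comparison 6 of the 8 estimates were above 0 (median 0.56), and 6 of 8 had an unadjusted p under 0.05, 4 with an estimate above 0, Csf1r, Cd5l, Vsig4 and Adgre1 at 0.57 to 0.67, and Cd163 and Marco (-1.92 ± 0.51) with one below. Those other than Cd163 were named after their values were seen. Sums were 278.4 to 322.7 CPM in knockout and 278.3 to 398.2 CPM in C57BL/6NJ livers, with 0 of 8 called, and 0 of 7 were called in Tg hepatocytes (2 and 3 at an unadjusted p under 0.05). The 12 hepatocyte markers, none of them at 0 in any group, summed to 87570 to 99920 CPM in Tg livers and 117600 to 123100 CPM in C57BL/6J livers, and to 79500 to 84330 CPM in knockout livers and 87870 to 92500 CPM in C57BL/6NJ livers. In plated hepatocytes they summed to 39580 to 54390 CPM in Tg and 43510 to 49050 CPM in wild-type pools. Cps1 (-0.66 ± 0.12) and Ass1 (-0.71 ± 0.13), both of the urea cycle, fell in knockout livers, with 0 of 12 called in each Tg comparison (2 at an unadjusted p under 0.05 in Tg livers and 0 in Tg hepatocytes). The part of these cell types in the levels of the thioesterase genes was not tested.

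None of the 10 CLIP libraries, which held between 6151 and 10902 reads each, had a read on any of the 6 genes. Over all 80854 reads, 0 allows a share of up to 0.00371%, or 37.1 CPM, for the cluster as a whole (3 counts of the total; the exact Clopper-Pearson upper bound is 0.00456%). The 21.6 CPM of the cluster in Tg hepatocyte RNA would give 1.75 reads at that depth, so binding in proportion to RNA level was not detectable. There was no control precipitate, and limits of this kind cover counting error only.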

How the data were processed

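Per the submitters' processing notes, the authors used bcl2fastq, STAR 2.0.4b, GRCm38 and featureCounts 1.45 of Subread. Each deposited table gives the authors' raw read count of 41388 genes. The deposited CPM are these counts scaled to the library total, and the deposited RPKM are CPM per kilobase of gene length; both were recomputed, with largest differences of 4.9e-10 and 1.6e-10. Symbols were found for 40254 identifiers, and 40244 identifiers overlapped their gene in GENCODE M21, the annotation used here for transcripts.

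Each comparison was fitted on its own libraries with edgeR 4.0.16 (filterByExpr with a minimum count of 10, TMM, quasi-likelihood test, Benjamini-Hochberg over all genes tested, threshold 0.05) in R 4.3.3. The SE is the log2 fold change over the square root of F, and intervals are 1.96 SE. DESeq2 1.42.0 was an alternative. The fits were tested on simulated data. Correlations used Python 3.11.15 with numpy 2.4.6 and scipy 1.17.1. Replicates are pools the labels give separate numbers, and libraries of a group were treated as separate pools.

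The members, gene lists and tests were chosen with earlier results of these data known, so members carry no p-value for the 3 comparisons. Named genes are the 6 members, A1cf, up to 4 called genes of each list by smallest p, the nearest 2 tested genes on each side, and the 5 most alike. Members and genes with Gm or Rik names were passed over in choosing those 5. Set tests were not run. Some calls among the listed genes are not reported here.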

Additional observations from a re-analysis of the deposited data

Results flagged for a closer look

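Acot1 in Tg liver pool 1, at 2.19 CPM, stood apart from the other 3 Tg liver pools, which had 3.86 to 4.12 CPM. Acot3 in C57BL/6J liver pool 2, at 213.4 CPM, stood apart from the other 3 C57BL/6J pools, which had 7.01 to 38.7 CPM. Both came from a comparison of the gap to the nearest pool with the whole range of the group. It was made 10 times, for members with enough reads in Tg and in C57BL/6J livers (4 pools each). The same pools serve every gene, so these 10 cases are not independent. For normal values chance gives such a flag in about 1 of 20 cases, and whether CPM values are normal was not tested.

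The Tg effect and the knockout effect in liver differed past the threshold of the interaction test (edgeR, adjusted p below 0.05) for 4 genes, with a Tg effect minus knockout effect of -3.43 for Acot1, -2.11 for Acot2, -5.57 for Acot3 and -2.70 for Acot4 on the log2 scale. The members were chosen with both effects known.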

How the results depend on the processing

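Over the alternatives run, the log2 fold changes of single members moved by over 1 SE in 9 of 186 cases and the differences between effects in 3 of 187, each time on leaving out a pool. In Tg hepatocytes Acot1, Acot2 and Acot4 were at 0.19, 0.87 and 0.12 without wild-type pool 1, and Acot5 at -0.62 without Tg pool 1. Without C57BL/6NJ pool 1, Acot1, Acot3 and Acot4 were at 1.82, 1.22 and 0.84 in knockout livers, and Acot3 at 0.56 without C57BL/6NJ pool 3. Without C57BL/6J pool 2, Acot3 was at -3.37 in Tg livers, at -4.22 for the Tg minus knockout effect and at -4.11 for the Tg effect in livers minus that in hepatocytes, where Acot5 was at -0.09. Signs changed in 13 of the 186 cases, none of them in a value that had passed the threshold. Counts of called genes depended far more on the setting. Tg hepatocytes had 434 called genes, 2017 with DESeq2, 669 with no filter on low counts, 4323 in 1 fit over all RNA groups, and 0 to 4934 leaving out each pool in turn; PPARα targets called there were 1, then 8, 3, 8 and 0 to 9, and members 0 under each. Tg livers had 188 called genes, 1242 with DESeq2, 991 in the fit over all groups and 27 to 561 leaving out each pool; PPARα targets were 0, then 3, 2 and 0 to 1, and members 2, with 0 to 3 leaving out each pool. Knockout livers had 475 called genes, 903 with DESeq2, 1079 with no filter, 42 in the fit over all groups and 137 to 645 leaving out each pool; members were 2, with 4 with no filter, 1 in the fit over all groups and 2 to 4 leaving out each pool, and PPARα targets 14, with 1 in the fit over all groups and 5 to 14 leaving out each pool. For the Tg effect in livers minus that in hepatocytes 0 members were called, 1 with no filter and 0 to 3 leaving out each pool; for the Tg minus knockout effect 4 were called, and 1 to 4 leaving out each pool. The cause of these moves was not tested.

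With the replicate number as a block, called genes were 21 in Tg hepatocytes and 44 in Tg livers, PPARα targets 0 in Tg hepatocytes, and 1 member was called for the Tg effect in livers minus that in hepatocytes; no other count moved by over 1.5 times. The correlation of deviations of equally numbered pools ran between -0.51 and 0.685 over 10 pairs, so the numbers were not taken to pair the pools.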
